A study of Mus musculus with 12 samples.

Results

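Small secreted proteins of the male reproductive tract were followed across 12 expression arrays of mouse adipose tissue. The genes are all those that the array annotation names as a numbered beta-defensin (Defb), Kazal-type inhibitor (Spink), WAP four-disulfide core gene (Wfdc) or lipocalin (Lcn), together with Adam7, Gpx5, Crisp1 and Ceacam10. The choice went by gene name, with earlier results of these data known, and set no limit on a measured value. It gave 49 of the 18193 genes on the array: 20 defensins, 7 Spink genes, 11 Wfdc genes, 8 lipocalins, Adam7, Gpx5 and Ceacam10. Crisp1 was not analysed here, because no probe set carried its symbol alone. Each gene was read from 1 probe set, the one with the highest mean over the 12 arrays, and no gene was left out for a low signal. Values are deposited log2 signals, in which a step of 1 is a doubling.

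The tissue is labelled adipose tissue of C57Bl/6 mice, with no depot, sex or genotype named. There were 4 samples after 14 days on a high-fat diet (HFD) in which fat supplied 46% of the calories, 4 after 5 days of the same diet and 4 on standard chow in which it supplied 13%. All mice ate chow until 6 weeks of age, when the HFD groups were switched; they were housed in groups and ate and drank freely. The chow samples serve as the control of the diet series in the study's design, and no label says how old the chow mice were when tissue was taken. The samples are called experimental replicates, and nothing says that each came from a separate animal, so each p measures the spread between these samples. Arrays are named below by group and by the replicate number of their label.

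Many of these genes are known for the epididymis, the coiled duct in which sperm mature after leaving the testis. Its epithelium works in segments: the initial segment, the caput, the corpus and the cauda each secrete their own proteins onto passing sperm, many of them under androgen control. Beta-defensins are small cationic peptides with antimicrobial activity, and several coat sperm. Spink and Wfdc proteins carry domains that inhibit proteases, and lipocalins carry small hydrophobic molecules. Adam7 is a membrane protein made in the epididymis and passed to sperm, Gpx5 a secreted peroxidase of the caput, and Ceacam10 a glycoprotein known from mouse seminal vesicle. Some members have other homes: Lcn2 binds bacterial siderophores and is made by adipocytes and inflamed tissue, Wfdc17 belongs to activated macrophages, and Wfdc21 is secreted by adipose tissue.

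Upstream sequence is shown for 5 members whose values the results turn on, 4 of them high in the same arrays and the fifth, Lcn5, high in these arrays and in chow array 3. Each line gives the 250 bases before the annotated start, 5′ to 3′ on the gene's strand, from RefSeq promoters of GRCm38.p6. Capitals mark TGTTCT or its reverse complement AGAACA, the hexamer that the androgen receptor's DNA motif holds as a pair, and in Lcn5 the TATA box TATAAA; Defb9 holds neither and is shown beside its neighbour Defb11. The windows are chr2:164221664-164221913 (minus strand) for Wfdc15b, chr7:24776917-24777166 (plus strand) for Ceacam10, chr8:21906433-21906682 (minus strand) for Defb11, chr8:21885435-21885684 (minus strand) for Defb9 and chr2:25657702-25657951 (plus strand) for Lcn5.
Wfdc15b: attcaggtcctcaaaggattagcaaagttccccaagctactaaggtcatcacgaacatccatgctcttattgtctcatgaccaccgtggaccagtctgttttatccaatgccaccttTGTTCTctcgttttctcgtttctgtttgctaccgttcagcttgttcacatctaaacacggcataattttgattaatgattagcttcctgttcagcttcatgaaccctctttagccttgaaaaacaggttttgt
Ceacam10: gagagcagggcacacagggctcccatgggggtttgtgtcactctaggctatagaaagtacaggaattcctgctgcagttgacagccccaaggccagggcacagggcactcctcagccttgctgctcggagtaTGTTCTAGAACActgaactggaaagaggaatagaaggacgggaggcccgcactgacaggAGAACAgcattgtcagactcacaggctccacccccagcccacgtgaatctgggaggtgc
Defb11: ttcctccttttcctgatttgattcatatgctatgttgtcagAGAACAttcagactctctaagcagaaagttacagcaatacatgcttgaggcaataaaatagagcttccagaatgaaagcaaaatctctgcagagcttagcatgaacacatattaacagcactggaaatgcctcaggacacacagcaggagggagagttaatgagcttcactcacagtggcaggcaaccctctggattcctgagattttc
Defb9: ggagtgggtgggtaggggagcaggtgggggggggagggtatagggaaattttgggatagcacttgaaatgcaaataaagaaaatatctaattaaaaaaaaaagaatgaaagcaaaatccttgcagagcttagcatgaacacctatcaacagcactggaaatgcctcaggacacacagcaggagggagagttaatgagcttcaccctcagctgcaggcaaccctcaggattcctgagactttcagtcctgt
Lcn5: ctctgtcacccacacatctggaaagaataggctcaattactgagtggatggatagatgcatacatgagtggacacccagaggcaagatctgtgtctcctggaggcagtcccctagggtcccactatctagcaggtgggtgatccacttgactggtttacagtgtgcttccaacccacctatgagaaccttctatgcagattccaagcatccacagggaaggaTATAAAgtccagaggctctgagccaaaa
The upstream windows of Defb11 and Defb9 share a block of 141 aligned bases, of which 131 (92.9%) are identical. Of the 49 members, 34 had a window, 15 of them among the 24 members that were high in some array as defined below. TGTTCT, read on both strands, was present in 7 of those 15 windows, in 4 of the 19 windows of the other members and in 16.1% of all 32851 windows of the same length. TATAAA, also on both strands, was present in 2 of the 15, in 3 of the 19 and in 12.4% of all windows. The full palindrome, AGAACA and TGTTCT with any 3 bases between them, was in 0 of the 34 member windows and in 0.00913% of all. A match only describes these letters.

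The arrays of each HFD group differed strongly among themselves. A gene was counted as high in an array when it stood at least 1 log2 unit above the median of the 4 chow arrays, or, for a chow array, of the other 3; this describes single arrays and is not a test. In 14-day arrays 1, 2, 3 and 4 the number of high members was 1, 1, 1 and 23 of 49, beside 0.967%, 0.044%, 0.5% and 4.29% of all genes. In 5-day arrays 1, 2, 3 and 4 it was 16, 16, 15 and 1, beside 1.25%, 1.71%, 1.62% and 1.23% of all genes. In chow arrays 1, 2, 3 and 4 it was 0, 0, 2 and 0, beside 0.0055%, 0.044%, 0.896% and 0.159% of all genes. Array 4 of the 14-day group and arrays 1 to 3 of the 5-day group therefore held these transcripts at high levels, while 14-day arrays 1 to 3 and 5-day array 4 lay near chow. Array medians were alike, between 8.09 and 8.14, and correlations between arrays over all probe sets ran between 0.956 and 0.997.

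**Figure D1:**
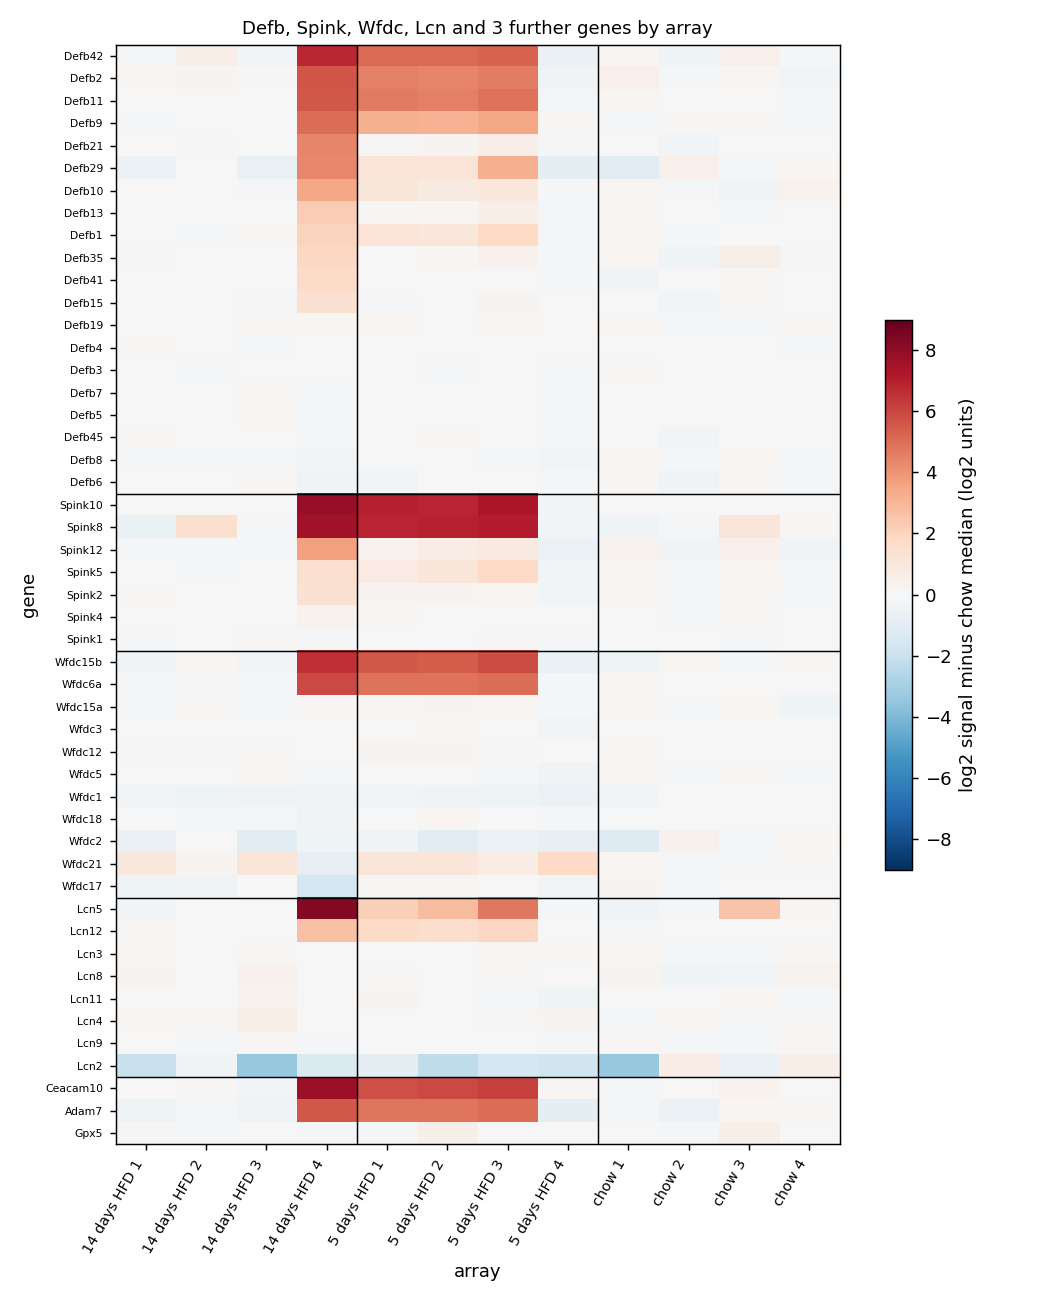
Log2 signal of each of the 49 members over its chow median (colour, on a scale to 9 log2 units in both directions) in the 12 arrays, ordered 14 days of HFD, 5 days of HFD and chow. The block of high values lies in 14-day array 4 and in 5-day arrays 1 to 3, with 23, 16, 16 and 15 members at least 1 log2 unit above chow.

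In at least 1 array 24 of the 49 members (49%) were high, against 6% of all genes. They were 12 of 20 defensins, 5 of 7 Spink genes, 3 of 11 Wfdc genes, 2 of 8 lipocalins, and Adam7 and Ceacam10. High in exactly 14-day array 4 and 5-day arrays 1 to 3 were 12 members (24.5%): Adam7, Ceacam10, Defb1, Defb2, Defb9, Defb11, Defb29, Defb42, Lcn12, Spink10, Wfdc6a and Wfdc15b. The same set of arrays was found for 152 genes, 0.835% of all. In bulk tissue, fewer cells of a type and less RNA per cell cannot be told apart, and the same holds for more of either.

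Among the protease inhibitors, Spink8 had 6.85, 8.87, 7.25 and 14.96 in 14-day arrays 1 to 4, 14.28, 14.34, 14.45 and 7.20 in 5-day arrays 1 to 4 and 7.12, 7.32, 8.38 and 7.51 in chow arrays 1 to 4. Chow array 3 and 14-day array 2 stood apart from their groups by a smaller step, and both counted as high. In 14-day array 4 the level was 187-fold the chow median, and in 5-day array 3 it was 131-fold. Chow levels of several members were close to the lowest signal on any array (4.18), and the values used here carry no detection calls. Folds over such chow levels may be lower bounds, and their order between genes is not fixed. Spink10 had 5.70, 5.76, 5.77 and 13.54 in 14-day arrays 1 to 4, 12.70, 12.59, 13.05 and 5.46 in 5-day arrays 1 to 4 and 5.77, 5.73, 5.69 and 5.73 in chow arrays 1 to 4. All 8 arrays of the lower set lay within 5.46 to 5.77, with no intermediate value, and the level in 14-day array 4 was 225-fold the chow median. Both groups on HFD overlapped chow, since each held arrays at chow level.

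The Wfdc genes of this pattern encode small secreted proteins with WAP domains. Wfdc15b had 7.58, 8.12, 7.67 and 14.48 in 14-day arrays 1 to 4, 13.54, 13.37, 13.80 and 7.35 in 5-day arrays 1 to 4 and 7.58, 8.06, 7.88 and 7.98 in chow arrays 1 to 4. Wfdc6a had 6.96, 7.03, 6.97 and 13.11 in 14-day arrays 1 to 4, 12.00, 12.01, 12.15 and 6.96 in 5-day arrays 1 to 4 and 7.33, 7.15, 7.13 and 7.10 in chow arrays 1 to 4. Both genes stood highest in 14-day array 4, with 5-day arrays 1 to 3 next and the other 8 arrays together. Over chow, Wfdc15b was 93.8-fold in 14-day array 4 and 58.5-fold in 5-day array 3.

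Adam7 had 7.84, 8.12, 7.95 and 13.89 in 14-day arrays 1 to 4, 13.07, 13.09, 13.29 and 7.40 in 5-day arrays 1 to 4 and 8.23, 7.79, 8.37 and 8.32 in chow arrays 1 to 4. The glycoprotein gene Ceacam10 had 5.62, 5.65, 5.31 and 13.27 in 14-day arrays 1 to 4, 11.40, 11.53, 11.70 and 5.78 in 5-day arrays 1 to 4 and 5.48, 5.59, 5.86 and 5.56 in chow arrays 1 to 4 at its brightest probe set. Of its other 2 probe sets, 1 read 12.52 in 14-day array 4, 11.17 to 11.31 in 5-day arrays 1 to 3 and 5.40 to 5.64 in the other arrays, whereas the other stayed between 6.39 and 7.30 in all 12. The first 2 probe sets thus divided the arrays alike, and the third did not. Adam7 was 49.2-fold and Ceacam10 207-fold over chow in 14-day array 4.

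**Figure D2:**
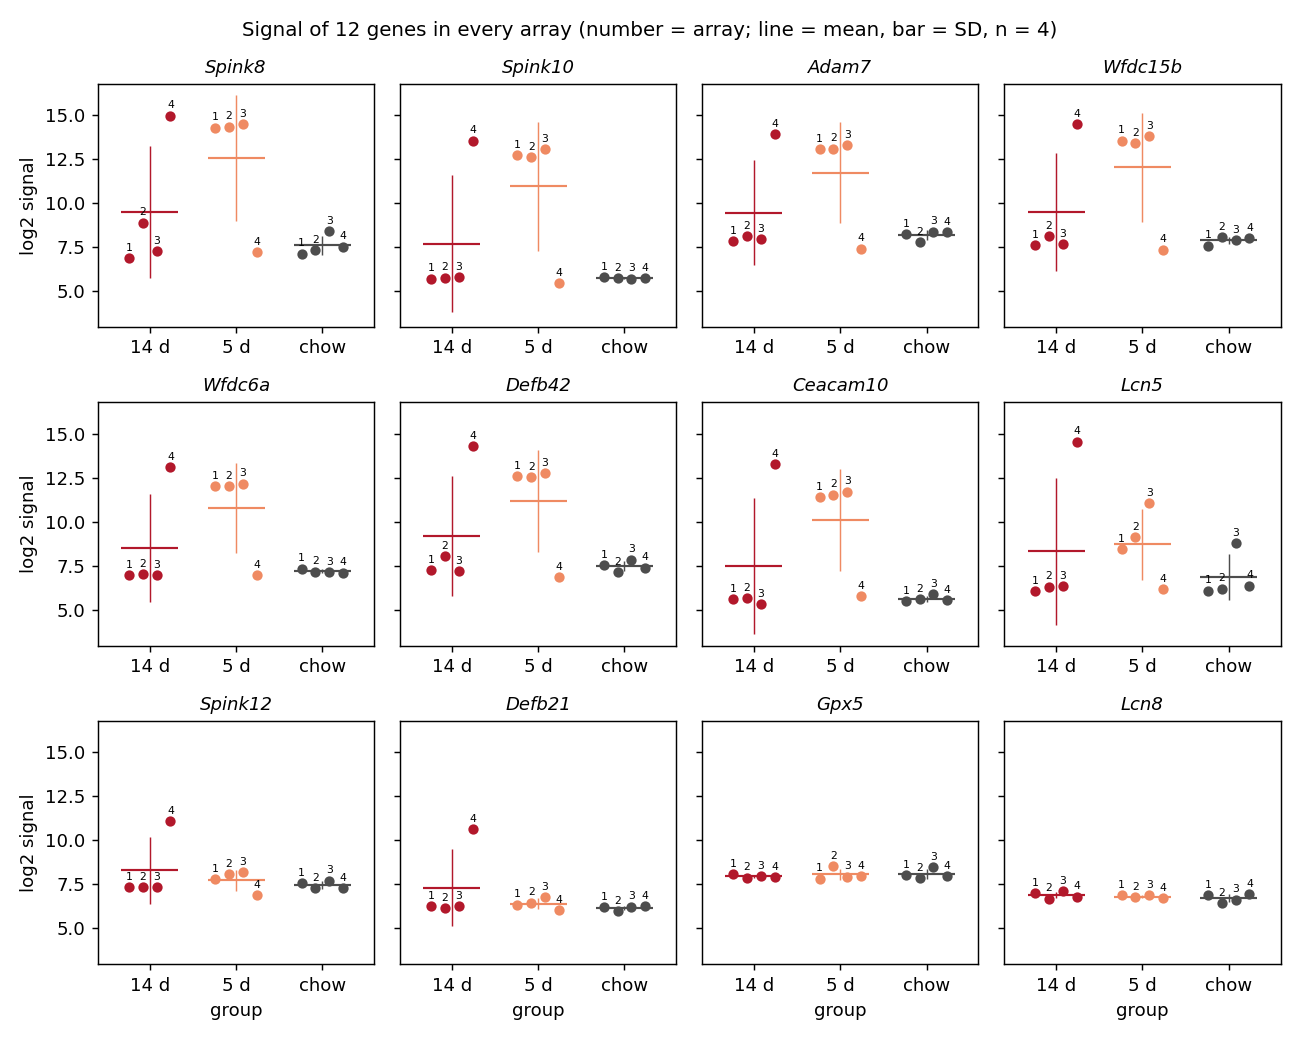
Log2 signal of 12 members in every array (1 point per array), with 14 days of HFD, 5 days of HFD and chow along the x axis. For Spink8, Spink10, Adam7, Wfdc15b, Wfdc6a, Defb42 and Ceacam10, 1 of 4 arrays at 14 days and 3 of 4 at 5 days stood far above chow, Lcn5, Spink12 and Defb21 were highest in 14-day array 4, and Gpx5 and Lcn8 stayed flat.

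Among the defensins, Defb42 had 7.25, 8.06, 7.18 and 14.26 in 14-day arrays 1 to 4, 12.57, 12.53, 12.76 and 6.84 in 5-day arrays 1 to 4 and 7.53, 7.13, 7.83 and 7.38 in chow arrays 1 to 4. Defb2 had 7.13, 7.21, 7.07 and 12.64 in 14-day arrays 1 to 4, 11.54, 11.37, 11.62 and 6.67 in 5-day arrays 1 to 4 and 7.33, 6.91, 7.07 and 6.86 in chow arrays 1 to 4. Defb11 had 6.91, 6.93, 6.90 and 12.53 in 14-day arrays 1 to 4, 11.60, 11.44, 11.80 and 6.82 in 5-day arrays 1 to 4 and 7.04, 6.94, 6.88 and 6.82 in chow arrays 1 to 4. These genes followed the order seen for Spink10, with a clear gap between the 4 high arrays and the other 8. Defb9 had 4.98, 5.05, 5.17 and 10.18 in 14-day arrays 1 to 4, 8.35, 8.24, 8.60 and 5.22 in 5-day arrays 1 to 4 and 4.99, 5.15, 5.20 and 5.08 in chow arrays 1 to 4, and here 5-day array 4 also lay a little above the 4 chow arrays. Defb29 had 8.12, 8.64, 8.01 and 13.01 in 14-day arrays 1 to 4, 9.82, 9.82, 11.87 and 7.86 in 5-day arrays 1 to 4 and 7.79, 8.98, 8.56 and 8.76 in chow arrays 1 to 4, with 5-day array 3 well above 5-day arrays 1 and 2. Defb1, a beta-defensin of many epithelia, had 7.70, 7.57, 7.83 and 9.67 in 14-day arrays 1 to 4, 8.89, 8.68, 9.48 and 7.50 in 5-day arrays 1 to 4 and 7.81, 7.56, 7.65 and 7.71 in chow arrays 1 to 4. Its other probe set showed a wider gap, with 11.26 in 14-day array 4, 9.94 to 10.94 in 5-day arrays 1 to 3 and 6.22 to 6.66 in the other 8. The probe sets used for Defb1 and Defb11 carry the _s_at and _x_at endings that mark probes shared with similar transcripts, so signal from near-identical defensins cannot be told apart there.

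A second set of members was high in 14-day array 4 and little or not at all elsewhere. Defb21 had 6.24, 6.14, 6.25 and 10.62 in 14-day arrays 1 to 4, 6.34, 6.46, 6.79 and 6.02 in 5-day arrays 1 to 4 and 6.20, 5.97, 6.24 and 6.25 in chow arrays 1 to 4. Spink12 had 7.34, 7.35, 7.33 and 11.11 in 14-day arrays 1 to 4, 7.77, 8.06, 8.21 and 6.88 in 5-day arrays 1 to 4 and 7.57, 7.27, 7.70 and 7.28 in chow arrays 1 to 4. Defb10 had 6.21, 6.28, 6.19 and 9.77 in 14-day arrays 1 to 4, 7.34, 7.04, 7.20 and 6.11 in 5-day arrays 1 to 4 and 6.35, 6.17, 6.06 and 6.46 in chow arrays 1 to 4, and also counted as high in 5-day array 1 by a narrow margin (1.08 log2 units, with 0.94 in 5-day array 3 and 0.78 in 5-day array 2). In these 3 genes 5-day arrays 1 to 3 lay above every chow array, but far below 14-day array 4. Defb13, Defb15, Defb35, Defb41 and Spink2, the last an inhibitor of sperm proteases, were also high in 14-day array 4 alone, with levels of 8.53, 9.74, 8.80, 7.02 and 9.53 there against highest chow values of 6.43, 8.45, 7.38, 5.34 and 8.23. Spink5, whose product is best known as a protease inhibitor of skin, had 5.59, 5.48, 5.55 and 7.01 in 14-day arrays 1 to 4, 6.28, 6.65, 7.37 and 5.30 in 5-day arrays 1 to 4 and 5.61, 5.53, 5.69 and 5.47 in chow arrays 1 to 4, with its highest value in 5-day array 3.

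Among the lipocalins, Lcn5, a retinoid carrier of the mouse caput, had 6.04, 6.30, 6.34 and 14.54 in 14-day arrays 1 to 4, 8.44, 9.13, 11.05 and 6.17 in 5-day arrays 1 to 4 and 6.08, 6.19, 8.78 and 6.36 in chow arrays 1 to 4. It stood at 307-fold the chow median in 14-day array 4, and at 27.3-fold in 5-day array 3, 7.23-fold in 5-day array 2 and 4.49-fold in 5-day array 1. Chow array 3 was high as well (6.01-fold). Lcn12 had 7.38, 7.30, 7.28 and 9.85 in 14-day arrays 1 to 4, 8.97, 8.86, 9.08 and 7.21 in 5-day arrays 1 to 4 and 7.16, 7.26, 7.23 and 7.27 in chow arrays 1 to 4. In Lcn12 every 14-day array lay above every chow array, though the closest values, 7.28 in 14-day array 3 and 7.27 in chow array 4, nearly met. Lcn8 and Lcn9, lipocalins of the initial segment in mouse, stayed between 6.45 and 7.11 and between 6.95 and 7.24 in all 12 arrays. Lcn3, Lcn4 and Lcn11 varied by 0.23, 0.57 and 0.65 log2 units over all arrays, and Gpx5 lay between 7.82 and 8.52.

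The size of the gap between 5-day arrays 1 to 3 and 14-day array 4 differed between members. Of the 23 members high in 14-day array 4, 9 came within 1 log2 unit of it in at least 1 of the 5-day arrays, 10 stopped short by 1 to 2 log2 units and 4 by more than 2. The last 4 were Defb10, Spink12, Lcn5 and Defb21, whose closest 5-day array differed from 14-day array 4 by −2.43, −2.90, −3.49 and −3.83 log2 units. For Spink8, Spink10 and Adam7 the same difference was −0.51, −0.49 and −0.60. The caput lipocalin and these inhibitors therefore did not stand in 1 fixed ratio between the arrays. Spink5 was the exception in the other direction, since 5-day array 3 exceeded 14-day array 4 by 0.36. The gap is also limited by how far a gene rose over chow in 14-day array 4, so each class mixes unlike cases. In the class of 1 to 2 log2 units, Defb41 rose by 1.755 with a gap of −1.753, at chow level in the 5-day arrays. Ceacam10, in the same class, rose by 7.70 with a gap of −1.57.

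**Figure D3:**
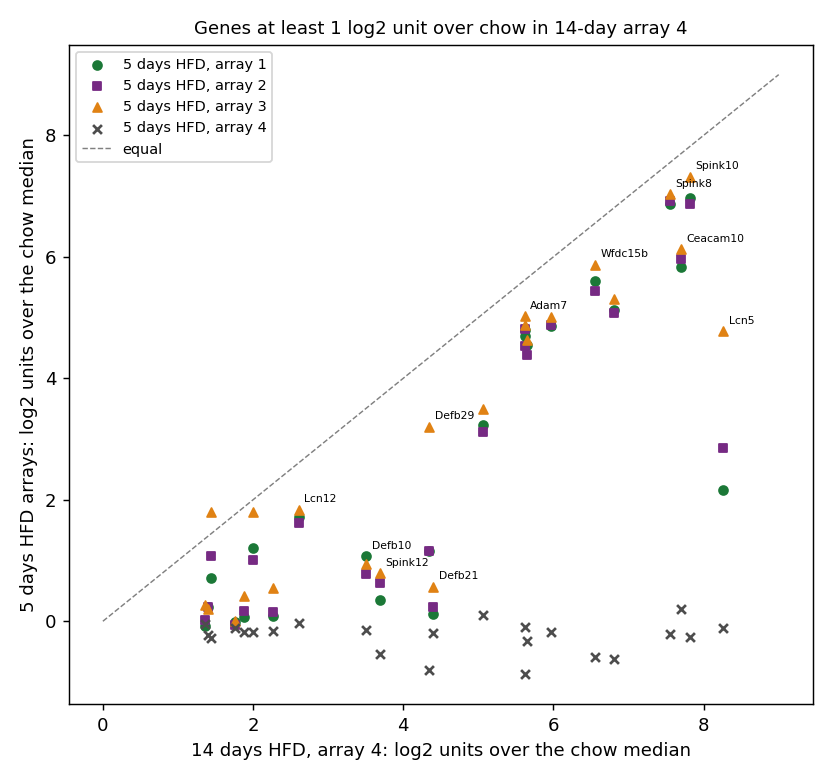
Log2 signal over the chow median in 5-day arrays 1 to 4 (y axis, 1 point per array and gene) against that in 14-day array 4 (x axis) for the 23 members high in 14-day array 4, with the line of equal values. In 5-day arrays 1 to 3 Spink8, Spink10 and Adam7 lie near the line, the points of 5-day array 4 lie near 0, and Defb10, Spink12, Lcn5 and Defb21 fall more than 2 log2 units below it in every 5-day array.

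Neighbouring genes were compared by their order along the chromosomes in RefSeq. Chromosome 8 holds 15 members. Along it, Defb4, Defb6, Defb5, Defb3, Defb8 and Defb7 were high in no array, and the next 8 members, Defb1, Defb2, Defb10, Defb9, Defb11, Defb15, Defb35 and Defb13, were all high in 14-day array 4. The first run ranged over 0.16 to 0.43 log2 units across the 12 arrays and the second over 1.64 to 5.97. On chromosome 2, with 19 members, the 6 high ones did not lie together: Lcn12 and Lcn5 flank Lcn8, Defb29 and Defb21 are next to each other, and Wfdc15b and Wfdc6a stand among other Wfdc genes, with Wfdc2 between them. Adam7 and Defb42, both high, are the 2 members on chromosome 14.

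The region of the epididymis was read from lists of genes known for each segment in mouse. Of 5 measured genes of the initial segment, only the receptor tyrosine kinase gene Ros1 was high, at 7.37 in 14-day array 4, 6.43, 6.30 and 6.68 in 5-day arrays 1 to 3 and 6.21 to 6.38 in chow. Lcn8, Lcn9, Rnase10 and Adam28 were high in no array. Of 5 measured genes of the caput, Adam7 and Lcn5 were high, and Gpx5 and the cystatin genes Cst11 and Cst12 were not, with Cst11 between 5.93 and 6.20 and Cst12 between 5.79 and 6.08 in all arrays. The lists for the corpus and cauda and for the vas deferens held 1 gene each, which was not analysed here, so these lists could not be read. The other secreted proteins that follow were assigned to no segment. Of 6 other genes for proteins secreted by the epididymis, the prostaglandin synthase gene Ptgds, the CAMPATH-1 antigen gene Cd52 and the sperm-binding protein gene Crisp4 were high in 14-day array 4 and 5-day arrays 1 to 3, and the chaperone gene Clu in 14-day array 4 alone. Crisp4 had 5.28, 5.33, 5.21 and 10.13 in 14-day arrays 1 to 4, 8.77, 8.89, 9.53 and 5.18 in 5-day arrays 1 to 4 and 5.45, 5.29, 5.31 and 5.22 in chow arrays 1 to 4. The members that mark the caput were thus divided. Of the genes that mark the initial segment, Ros1 alone was high, in 14-day array 4, and the members Lcn8 and Lcn9 were high in no array. The caput list holds 9 genes and the initial segment list 6, so both were read in part. Each gene of these 2 lists that was high in no array was read from 1 probe set. No array here shows that these probe sets respond to their transcripts. Their flat values therefore cannot tell a low transcript from an unresponsive probe set, and no segment is excluded by them.

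Markers of other tissues moved with the same arrays, and their part in the values above was not tested. All 8 measured germ cell genes were high in 14-day array 4, where their mean was 9.86. In 5-day arrays 1, 2 and 3, 6, 6 and 8 of them were high and the means were 9.23, 9.12 and 9.84, whereas the mean was 7.03 to 7.17 in 14-day arrays 1 to 3, 6.99 in 5-day array 4 and 7.00 to 7.16 in chow. Smcp, whose product is a protein of sperm mitochondria, had for example 7.52, 7.69, 7.73 and 13.15 in 14-day arrays 1 to 4, 12.57, 12.36, 12.83 and 7.64 in 5-day arrays 1 to 4 and 7.52, 7.74, 7.67 and 7.47 in chow arrays 1 to 4. Smooth muscle markers were high for 6 of 6 genes in 14-day array 4 (mean 13.71), for 3 and 4 genes in 5-day arrays 1 and 2 (means 12.09 and 12.10) and for 0 in 5-day array 3 (mean 9.80), against chow means of 9.84 to 10.51. They were also high for 1 gene in 14-day array 2, the smooth muscle actin gene Actg2, which read 9.77 there and 8.20 to 8.97 in chow. The mean of the list in that array, 10.85, lay above every chow array, and Spink8 was high there too. In 14-day arrays 1 and 3 and 5-day array 4 no gene of the list was high (means 9.39, 9.79 and 10.08). Of 7 measured seminal vesicle genes, Ceacam10 and Pate4 were high in the 4 arrays and the others were not; Svs4 counted as high in chow array 2. Prostate markers were high in no array. The mean of 6 adipocyte markers, which checks the labelled tissue, was 14.22 to 14.67 in the 14-day arrays, 14.52 to 14.64 in the 5-day arrays and 14.43 to 14.57 in chow, lowest in 14-day array 4.

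**Figure D4:**
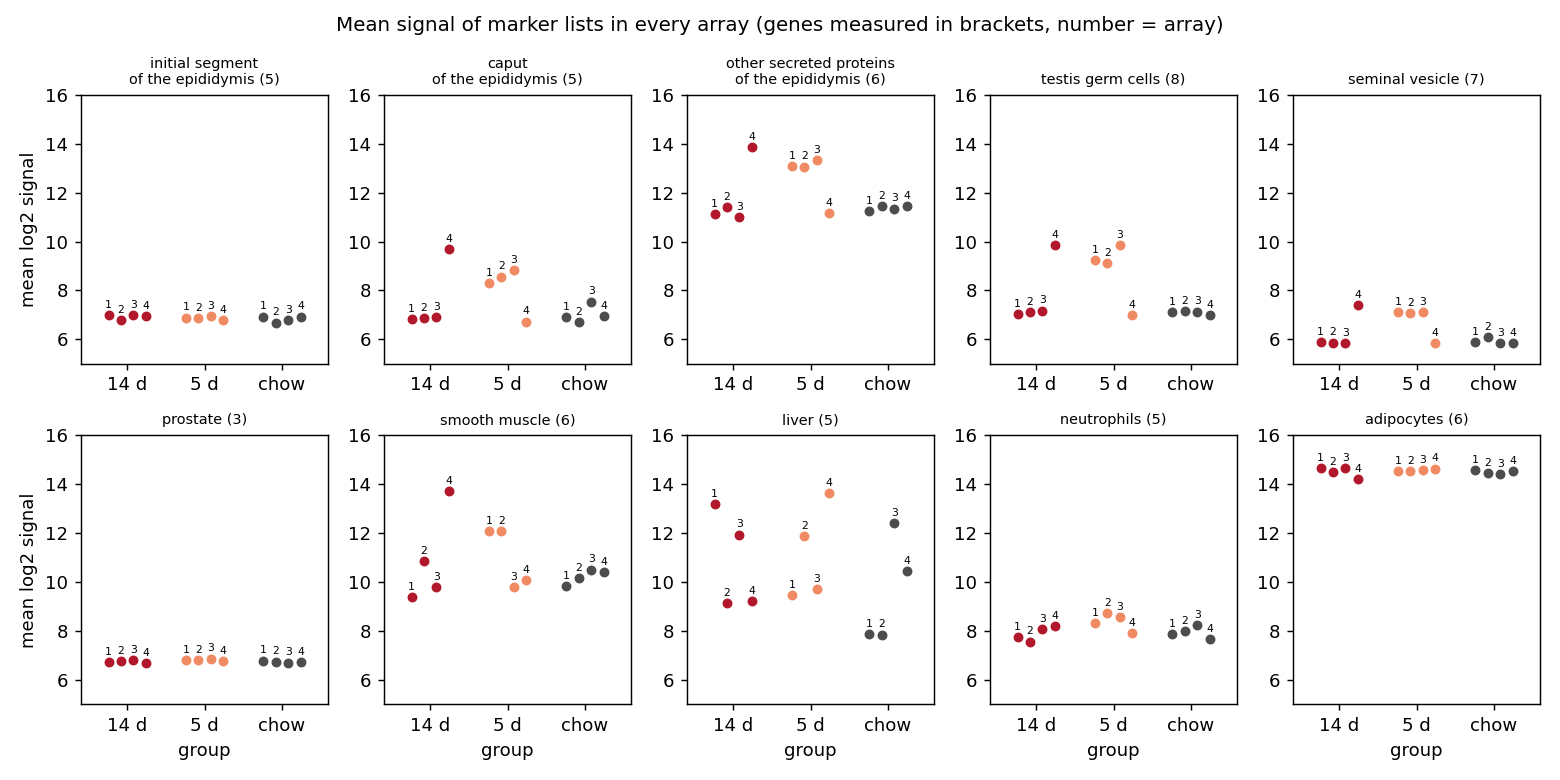
Mean log2 signal of marker lists in each array (1 point per array), with 14 days of HFD, 5 days of HFD and chow along the x axis. The germ cell list stood at 9.86 in 14-day array 4 and 9.12 to 9.84 in 5-day arrays 1 to 3, against 7.00 to 7.16 in chow, while the initial segment list stayed between 6.69 and 7.00 in all arrays.

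Genes outside the families were ranked by Pearson correlation with the mean of Adam7 and Spink8 over the 12 arrays, as a measure of likeness only, among the 2429 such genes with a range above 1 log2 unit. The 10 most alike were Cd52, Gm4988, Ly6f, Smcp, Ces5a, Odam, BC048679, Spinkl, Prm2 and Glb1l3, with r between 0.991 and 0.996. These values rest on the division into 4 high and 8 low arrays. The carboxylesterase gene Ces5a, for example, had 11.10, 11.08, 11.12 and 14.41 in 14-day arrays 1 to 4, 13.69, 13.68, 13.81 and 10.80 in 5-day arrays 1 to 4 and 11.17, 10.94, 11.25 and 11.19 in chow arrays 1 to 4, and the Kazal-type gene Spinkl, whose symbol has no number and which is therefore no member, had 4.66, 4.59, 4.52 and 9.58 in 14-day arrays 1 to 4, 8.55, 8.64, 8.86 and 4.50 in 5-day arrays 1 to 4 and 4.60, 4.59, 4.66 and 4.36 in chow arrays 1 to 4.

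The 14-day arrays were then set against chow, the control named for the time course. limma, fitted on all 18193 genes, called 0 members at an adjusted p under 0.05, and the background was 0% of genes in each direction. At an unadjusted p under 0.05 there were 4 members and 1271 genes. Of the members, 38 stood higher and 11 lower than chow, with a median log2 difference of 0.18, against 0.01 over all genes. Without 14-day array 4 that median was 0.01, close to that of all genes. Spink8 averaged 9.48 in the 14-day arrays and 7.58 in chow, a difference of 1.90 ± 1.90 (SE, n = 4 per group; limma adjusted p = 0.867), and 0.08 without 14-day array 4. A single array thus carried most of the difference in Spink8. Adam7 differed by 1.27 and by −0.21 without that array, and Ceacam10 by 1.84 and −0.10. Groups did not overlap for Lcn12, higher at 14 days by 0.72 ± 0.57, and Wfdc18, an extracellular proteinase inhibitor, at −0.17 ± 0.07, where 4.01% of all genes did not overlap; limma's adjusted p was 0.836 and 0.686. Without 14-day array 4 the difference in Lcn12 was 0.09, and the groups still did not overlap.

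At 5 days, the earlier time of the course, 3 of the 4 arrays held these transcripts at high levels. limma again called 0 members, beside 0% of genes in each direction, with 13 members and 1752 genes at an unadjusted p under 0.05. Of the members, 34 stood higher and 15 lower than chow, with a median of 0.08, against −0.002 over all genes. Spink10 averaged 10.95 in the 5-day arrays and 5.73 in chow, a difference of 5.22 ± 1.95 (SE; limma adjusted p = 0.453), and Spink8 12.57 and 7.58, a difference of 4.98 ± 1.90 (limma adjusted p = 0.461). In both genes 3 of the 4 arrays stood far above chow and 1 at its level. Without 5-day array 4 these differences were 7.05 and 6.77, each with limma adjusted p = 0.288, and without 14-day array 4, which is in neither group but enters the estimate of the spread, the adjusted p was 0.114 and 0.124. Adam7 differed by 3.53 ± 1.51, Ceacam10 by 4.48 ± 1.76 and Defb11 by 3.49 ± 1.35, while Gpx5 differed by −0.02 ± 0.16. Groups did not overlap for Defb9 and Wfdc21, both higher at 5 days, where 9.42% of all genes did not overlap. Their limma adjusted p was 0.509 and 0.392. An exact permutation test gave p = 0.0286 for each, the smallest that 4 arrays against 4 allow. Groups that do not overlap always give this p, so it adds nothing to that description. For Defb9 the closest values, 5.22 in 5-day array 4 and 5.20 in chow array 3, nearly met.

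For 14 against 5 days of HFD, limma called 0 members, beside 0% of genes in each direction, with 1 member and 444 genes at an unadjusted p under 0.05. That member was Wfdc18, at −0.16 log2 units. Of the members, 22 stood higher and 27 lower at 14 days, with a median of −0.02, against 0.01 over all genes. Spink8 differed by −3.08 ± 1.90, and by −4.91 without 14-day array 4 and −4.87 without 5-day array 4. Groups overlapped for every member, where 0.956% of all genes did not overlap.

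Calls appeared when limma weighted arrays by how far they departed from their group, which gave 14-day array 4 a weight of 0.134 and 5-day array 4 a weight of 0.298, the lowest of the 12. At 14 days against chow 2 members were called, Wfdc21 and Wfdc1, where 10.1% of all genes were called. At 5 days against chow 16 members were called, among them Spink8, Spink10, Adam7, Ceacam10 and Wfdc15b, where again 10.1% were called. At 14 against 5 days 13 members were called, where 6.85% were called. With these weights Spink8 differed from chow by −0.28 log2 units at 14 days and by 6.29 at 5 days. Weights of this kind were estimated from the same arrays whose disagreement they set aside.

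Some members followed other arrays. Wfdc21, encoding a small secreted protein of adipose tissue, had 12.61, 11.81, 12.71 and 10.88 in 14-day arrays 1 to 4, 12.69, 12.66, 12.29 and 13.35 in 5-day arrays 1 to 4 and 11.71, 11.48, 11.55 and 11.63 in chow arrays 1 to 4. It was high in 14-day arrays 1 and 3 and in 5-day arrays 1, 2 and 4, and lowest of all in 14-day array 4, the array with the highest Spink8. At 5 days it averaged 12.75 against 11.59 in chow, a difference of 1.15 ± 0.35 (SE; limma adjusted p = 0.392), and 0.95 without 5-day array 4. When only these 2 groups were fitted, limma called Wfdc21 (adjusted p = 0.0425), where 0.693% of all genes were called. At 14 days it differed from chow by 0.41 ± 0.35 (limma adjusted p = 0.848). This difference was 0.79 without 14-day array 4, 0.21 without 14-day array 1 and 0.18 without 14-day array 3.

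Wfdc17, of activated macrophages, had 10.45, 10.48, 10.79 and 9.24 in 14-day arrays 1 to 4, 10.92, 10.91, 10.77 and 10.53 in 5-day arrays 1 to 4 and 11.04, 10.73, 10.83 and 10.79 in chow arrays 1 to 4, lowest in 14-day array 4. Wfdc1, known from prostate stroma, had 9.02, 8.91, 8.84 and 8.98 in 14-day arrays 1 to 4, 9.04, 8.94, 8.86 and 8.76 in 5-day arrays 1 to 4 and 9.01, 9.28, 9.29 and 9.26 in chow arrays 1 to 4. Wfdc1 had the smallest p of any member at 5 days, with a difference of −0.31 ± 0.08 (limma adjusted p = 0.391) and an exact permutation p = 0.0571. The 2 groups overlapped only because 5-day array 1 (9.04) lay above chow array 1 (9.01). At 14 days it differed from chow by −0.27 ± 0.08 (limma adjusted p = 0.657).

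Lcn2 had 10.35, 12.05, 8.95 and 11.03 in 14-day arrays 1 to 4, 11.53, 10.07, 10.73 and 10.57 in 5-day arrays 1 to 4 and 9.21, 12.69, 12.02 and 12.65 in chow arrays 1 to 4. Its spread within each group was wide, and its 4 highest values were in 14-day array 2 and in chow arrays 2, 3 and 4, outside the arrays with high Spink10. Of these arrays, 14-day array 2 and chow array 3 counted as high for Spink8, and chow array 3 also for Lcn5. Wfdc2, an epithelial WAP gene, had 8.12, 8.75, 7.72 and 8.36 in 14-day arrays 1 to 4, 8.40, 7.74, 8.16 and 7.95 in 5-day arrays 1 to 4 and 7.67, 9.03, 8.61 and 8.82 in chow arrays 1 to 4, and its 4 highest arrays were the same as those of Lcn2. Lcn2 differed from chow by −1.05 ± 0.80 at 14 days and by −0.92 ± 0.80 at 5 days (limma adjusted p = 0.832 and 0.773). Chow array 1 lay far below the other chow arrays. Without it the differences were −1.86 and −1.73, and every 5-day array then lay below every chow array. The difference at 14 days was −0.70 without chow array 2 and −0.50 without 14-day array 3, and that at 5 days was −0.57 without chow array 2 and −0.58 without chow array 4.

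**Figure D5:**
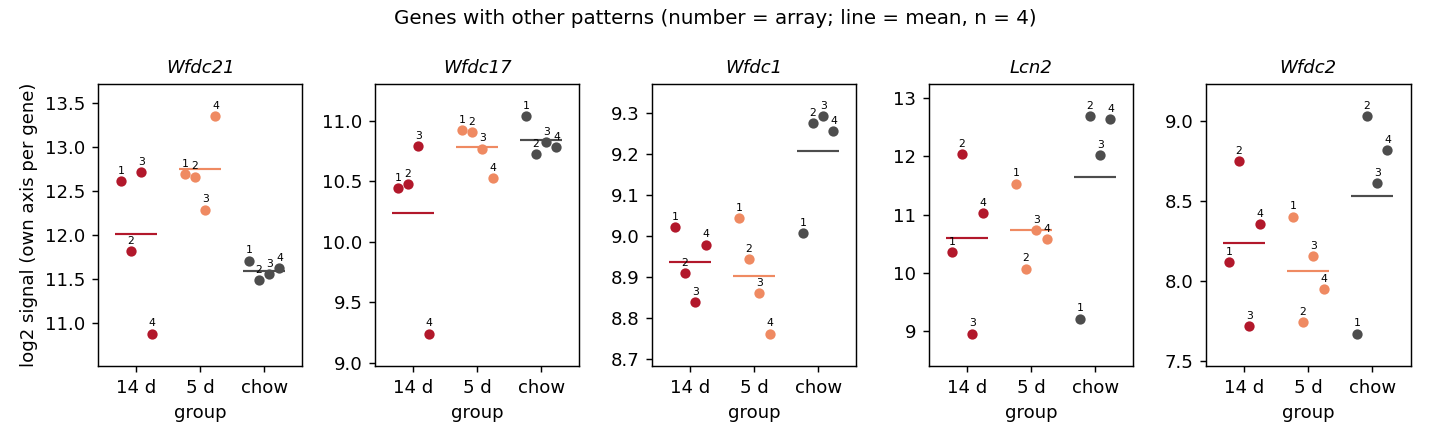
Log2 signal of Wfdc21, Wfdc17, Wfdc1, Lcn2 and Wfdc2 in every array (1 point per array), with 14 days of HFD, 5 days of HFD and chow along the x axis. Wfdc21 and Wfdc17 were lowest in 14-day array 4, and Lcn2 and Wfdc2 were highest in 14-day array 2 and chow arrays 2, 3 and 4.

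The remaining members were close to flat. Of the 25 members high in no array, 22 varied by less than 1 log2 unit over the 12 arrays, and the other 3 were Lcn2, Wfdc17 and Wfdc2; the median range of the 25 was 0.40 and the lowest 0.16 (Defb7). Among the flat ones were Spink1 and Spink4, inhibitors known from pancreas and intestine, which varied by 0.23 and 0.46 log2 units. At the limit of 1 log2 unit, the lowest value counted as high in 14-day array 4 was that of Defb15 (1.36), and the highest not counted was that of Spink4 (0.30). In 5-day array 2 the closest values were those of Defb1 (1.01) and Defb10 (0.78).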

How the data were processed

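RNA of 12 adipose samples was measured on single-colour Affymetrix arrays; per the labels' protocols, total RNA was reverse transcribed with a T7-oligo(dT) primer and biotin-labelled by transcription. The deposited values are log2 signals, a scale inferred from their range (4.18 to 15.50) and near-equal medians; how probes were summarised and arrays normalized is not given in the sources used here, and nothing was renormalized. Arrays give no counts, so the number of arrays limits precision.

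Of 45098 probe sets, 61 were controls, 34945 carried 1 symbol in the platform annotation, 932 several and 9160 none. Those with several symbols were set aside, among them 1 that holds Defb42. All 49 members matched RefSeq (GRCm38.p6) genes by Entrez ID, with 0 symbols changed. The members cover 54 probe sets, and 4 genes (Ceacam10, Defb1, Lcn4 and Wfdc3) have more than 1. Members, marker lists, tests and alternatives were chosen with earlier results of these data known.

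A single model over the 3 groups was fitted in R 4.3.3 using limma 3.58.1 (eBayes with trend, two-sided), with Benjamini-Hochberg adjustment over all 18193 genes and calls under 0.05. Exact permutation tests used the 70 labelings of 4 against 4 arrays. Figures and sequences were handled in Python 3.11.15 with Biopython 1.88. Named genes were members high by 1 log2 unit in any array, the 5 of smallest p in each comparison, Adam7, Spink8, Gpx5, Crisp1 and Ceacam10, the 10 non-members most like Adam7 and Spink8, and up to 4 examples per marker list; the text names part of these and, outside the rule, other flat members, Wfdc2, Lcn2 and marker genes picked after their values were seen. Replicate numbers were not used as pairs in the main fit, and the labels name no pairing. Of 12 same-numbered pairs between groups, 2 had a correlation of deviations over 0.1 (range −0.72 to 0.41). These correlations cannot show whether samples were paired.

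The alternatives tried were arrays centred on the median or quantile-normalized, filters at the 40th and 60th percentiles of signal, probe sets averaged per gene, eBayes without trend or robust, array weights, a fit of the 2 compared groups alone, a replicate block, a threshold of 0.1 for the adjusted p, other limits for a high value (0.5 and 2 log2 units, or the highest chow array in place of the median) and leaving out each array in turn.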

Additional observations from a re-analysis of the deposited data

Results flagged for a closer look

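An array was picked out when the gap between the highest or lowest of the 4 arrays of a group and its nearest neighbour, divided by the group's whole range, exceeded Dixon's critical value for 4 samples. All 49 members were read in each of the 3 groups, and 37 of the 147 groups were picked out; chance picks out about 1 in 20 groups. Values of many members move together, so the flags are not independent of each other. In the 14-day group array 4 stood far above the others in 22 members. The ratio was 0.954 for Adam7, 0.957 for Ceacam10, 0.877 for Defb1, 0.975 for Defb10, 0.995 for Defb11, 0.986 for Defb13, 0.908 for Defb15 and 0.975 for Defb2. It was 0.975 for Defb21, 0.874 for Defb29, 0.895 for Defb35, 0.986 for Defb41, 0.876 for Defb42, 0.963 for Defb9, 0.961 for Lcn12 and 0.965 for Lcn5. It was also 0.991 for Spink10, 0.995 for Spink12, 0.892 for Spink2, 0.926 for Spink5, 0.922 for Wfdc15b and 0.989 for Wfdc6a. The list holds defensins, Spink genes, Wfdc genes and lipocalins alike.

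In the 5-day group array 4 stood far below the others in 12 members. The ratio was 0.961 for Adam7, 0.95 for Ceacam10, 0.928 for Defb11, 0.949 for Defb2, 0.961 for Defb42, 0.892 for Defb9, 0.88 for Lcn12 and 0.94 for Spink10, and 0.924 for Spink2, 0.976 for Spink8, 0.933 for Wfdc15b and 0.972 for Wfdc6a. In 11 of these the other 3 arrays were at least 1 log2 unit above chow; Spink2 was the exception, with 8.37, 8.37 and 8.34 there, 7.90 in 5-day array 4 and at most 8.23 in chow. In chow, array 3 stood far above the others for Lcn5 (0.895; 8.78 against at most 6.36), and array 1 far below the others for Wfdc1 (0.87; 9.01 against at least 9.26). In chow, array 2 also lay below the others for Defb45 (0.888; 7.85 against at least 8.09).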

How the results depend on the processing

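The count of members called stayed at 0 in all 3 comparisons under median-centred and quantile-normalized arrays, both filters, the mean of probe sets, eBayes without trend or robust, and an adjusted p under 0.1, and as single arrays were left out. With the replicate number as a block limma also called 0 members in each comparison. Array weights called 2 members (1843 genes) at 14 days against chow, 16 (1845 genes) at 5 days against chow and 13 (1246 genes) at 14 against 5 days; the median at 14 days against chow was then 0.042, Adam7 turned to −0.12 and Spink8 to −0.28 there, and Gpx5 to 0.055 at 14 against 5 days. Fitting only the 2 groups called 1 member and 126 genes at 5 days against chow, from the same 8 arrays with another spread. Filters left 28 and 11 members, and with the 40th percentile filter their medians were 0.46, 0.61 and −0.40 (14 days against chow, 5 days against chow, 14 against 5 days), with the 60th 0.92, 1.32 and −0.74; a filter keeps genes that are high in some arrays, and these medians are no support.

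As single arrays were left out, genes called ran from 0 to 20 at 14 days against chow (20 without 14-day array 2 and 2 without 14-day array 4) and from 0 to 90 at 5 days against chow (90 without 14-day array 4 and 2 without 14-day array 2). The members' median ran from 0.0075 to 0.25 at 14 days against chow, from 0.044 to 0.12 at 5 days against chow and from −0.11 to 0.0016 at 14 against 5 days. At 14 days against chow Adam7 ran from −0.21 to 1.81 and Ceacam10 from −0.097 to 2.56, each lowest without 14-day array 4. Gpx5, near 0 throughout, changed sign in all 3 comparisons: it ran from −0.19 to 0.015 at 14 days against chow, from −0.17 to 0.12 at 5 days against chow and from −0.18 to 0.053 at 14 against 5 days. The count of members high in some array, 24, ran from 17 to 25 as arrays were left out, 17 without 14-day array 4; it was 24 under median-centred and quantile-normalized arrays, the mean of probe sets and the highest chow array as the level, 27 at a limit of 0.5 and 17 at a limit of 2 log2 units. With 4 arrays a group, limma left log2 differences near 5 uncalled where 1 array of the group stood at chow level. The causes of these changes were not tested.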

Other observations

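Some genes of other marker lists shared the arrays of the high members although most of their list did not. In the list of Pate4, the member Ceacam10 shared them too. Ltf, the iron-binding lactoferrin, listed here for neutrophils but also secreted by epithelia, had 8.08, 8.10, 8.33 and 12.35 in 14-day arrays 1 to 4, 10.41, 10.40, 10.08 and 8.05 in 5-day arrays 1 to 4 and 8.13, 8.16, 8.17 and 8.19 in chow arrays 1 to 4. None of the other 4 measured neutrophil genes was at least 1 log2 unit above chow in any array. Cyp17a1, a steroid synthesis enzyme listed for Leydig cells, had 7.67, 7.55, 7.64 and 10.75 in 14-day arrays 1 to 4, 10.05, 10.06, 10.42 and 7.32 in 5-day arrays 1 to 4 and 7.62, 7.45, 7.33 and 7.41 in chow arrays 1 to 4, and the other 3 genes of its list were high in no array. Pate4, a small secreted protein of the seminal vesicle, had 5.55, 5.43, 5.52 and 8.48 in 14-day arrays 1 to 4, 8.15, 7.92, 8.19 and 5.45 in 5-day arrays 1 to 4 and 5.71, 5.65, 5.36 and 5.47 in chow arrays 1 to 4.

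Markers of liver and skeletal muscle divided the arrays in other ways, and 5-day array 2 was high for both and for Spink8. All 5 measured liver genes were high in 6 arrays, and the list averaged 13.18 in 14-day array 1, 11.94 in 14-day array 3, 11.88 in 5-day array 2, 13.63 in 5-day array 4, 12.40 in chow array 3 and 10.44 in chow array 4. In the other 6 arrays at most 1 of them was high, and the list averaged 9.14 in 14-day array 2, 9.22 in 14-day array 4, 9.47 in 5-day array 1, 9.70 in 5-day array 3, 7.87 in chow array 1 and 7.85 in chow array 2. The chow median behind this count includes chow arrays 3 and 4, which raises the limit for liver genes. The HFD arrays among these 6 all averaged above chow arrays 1 and 2. All 6 skeletal muscle genes were high in 5-day array 2 (mean 12.54) and chow array 3 (mean 12.89). Of these genes 4 were high in 5-day array 4 (mean 9.28), 2 in 14-day array 4 (mean 8.50) and 1 in 5-day array 1 (mean 8.66), and none in the other 7 arrays. The part of these tissues in the values of the members was not tested. Chow array 3, high for both, was also the chow array with the highest Spink8 and Lcn5. Vil1, a gene of the intestinal brush border, had 7.06, 8.43, 7.05 and 6.33 in 14-day arrays 1 to 4, 7.37, 6.68, 6.98 and 7.18 in 5-day arrays 1 to 4 and 6.81, 8.57, 7.88 and 8.57 in chow arrays 1 to 4. Its 4 highest arrays were those of Lcn2 and Wfdc2. The 5 measured pancreas genes were high in no array, with list means between 8.35 and 8.60.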
